A study of Homo sapiens with 21 samples.

Results

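The 6 genes described here are the 4 kinases that phosphorylate the translation initiation factor eIF2alpha and the 2 subunits that direct protein phosphatase 1 (PP1) to remove that phosphate. They were chosen by name: EIF2AK1 (HRI), EIF2AK2 (PKR), EIF2AK3 (PERK), EIF2AK4 (GCN2), PPP1R15A (GADD34) and PPP1R15B (CReP), 6 of the 60671 genes in the count table. Earlier results of these data were known when they were chosen. All 6 passed the filter on low counts and are among the 14012 genes tested. Polyadenylated RNA was sequenced from 21 libraries in 7 groups of 3 replicates. OCI-AML3, a human acute myeloid leukaemia line grown in RPMI, was collected untreated at 0 h, and after 4 h or 24 h in DMSO, the solvent, or in tunicamycin at 1 μg/mL. HEK293T, a human embryonic kidney line that carries the SV40 large T antigen and was grown in DMEM, was collected after 24 h in DMSO or in the same dose of tunicamycin. Each cell type is represented by a single established line, and the labels do not say whether replicates were separate cultures, so p-values measure the spread between these libraries, which may be technical. Libraries held 13838480 to 19961819 counts.

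Tunicamycin blocks N-linked glycosylation, so that unfolded glycoproteins build up in the endoplasmic reticulum (ER). These kinases sense different stresses and converge on the same serine of eIF2alpha, which lowers general translation and favours a few messages such as that of the transcription factor ATF4. PERK sits in the ER membrane and senses unfolded proteins, PKR binds double-stranded RNA, HRI responds to haem shortage and mitochondrial stress, and GCN2 responds to uncharged transfer RNA. GADD34 is made under stress, downstream of ATF4, and closes the loop by returning PP1 to eIF2alpha, whereas CReP does so in unstressed cells. The kinases are switched on by their ligands and by phosphorylation, which RNA levels do not measure.

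The promoters of the 3 genes that rose under tunicamycin in OCI-AML3 cells are shown, since the results turn on these members. They are the 250 bases before the gene start in RefSeq (GRCh38.p14), 5′ to 3′ on the gene's strand. EIF2AK3 lies on the minus strand at chr2:88627465-88627714, PPP1R15A on the plus strand at chr19:48872171-48872420, and PPP1R15B on the minus strand at chr1:204411818-204412067. The GENCODE gene models of all 3 also reach further upstream, so that the windows and the positions in them depend on the start used. Capitals mark CCAAT, on either strand, in EIF2AK3, TGACGTCA in PPP1R15A, and TGATGCAA in PPP1R15B.
EIF2AK3: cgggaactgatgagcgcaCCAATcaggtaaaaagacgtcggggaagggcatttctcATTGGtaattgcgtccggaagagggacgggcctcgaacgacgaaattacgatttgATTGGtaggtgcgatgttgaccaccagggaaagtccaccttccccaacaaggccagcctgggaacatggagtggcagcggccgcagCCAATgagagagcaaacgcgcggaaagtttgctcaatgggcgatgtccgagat
PPP1R15A: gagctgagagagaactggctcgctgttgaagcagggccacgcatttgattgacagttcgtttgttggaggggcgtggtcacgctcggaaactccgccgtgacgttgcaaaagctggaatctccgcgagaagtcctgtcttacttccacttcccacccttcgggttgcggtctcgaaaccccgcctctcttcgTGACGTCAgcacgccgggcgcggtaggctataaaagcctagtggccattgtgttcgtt
PPP1R15B: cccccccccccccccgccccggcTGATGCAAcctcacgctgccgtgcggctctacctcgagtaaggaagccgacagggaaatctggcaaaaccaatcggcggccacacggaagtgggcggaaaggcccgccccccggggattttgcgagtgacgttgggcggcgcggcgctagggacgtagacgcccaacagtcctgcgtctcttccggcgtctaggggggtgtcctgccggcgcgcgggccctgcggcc
Of the 6 genes, 5 had an entry in the RefSeq promoter table, and EIF2AK1 had none. Each entry was searched on both strands for 5 motifs of the stress response: the ER stress elements ERSE (CCAAT, any 9 bases, CCACG) and ERSE-II (ATTGG, any base, CCACG), the unfolded protein response element TGACGTGG, the ATF4/CEBP composite element TGATGNAA and the cAMP response element TGACGTCA. The cAMP response element stood in PPP1R15A, 58 to 51 bases before the start, and in 1.65% of the 35116 promoters in the table. TGATGNAA was matched in PPP1R15B, 227 to 220 bases before the start, and in 3.14% of all promoters. The other 3 motifs, in 0.074%, 0.0513% and 0.612% of all promoters, were not in any of the 5 windows, and EIF2AK3, EIF2AK2 and EIF2AK4 held no match to any of the 5. CCAAT, which is the first part of ERSE, was added to the search after the sequences had been seen. EIF2AK3 held 4 of them, and 0.874% of all promoters held at least as many. Beside these, EIF2AK2 held 2, PPP1R15B held 1, and PPP1R15A and EIF2AK4 held 0. A match is a description of the letters in these windows only.

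Under tunicamycin, transcripts of EIF2AK3 and PPP1R15A rose in both lines and at every time sampled, and PPP1R15B rose in OCI-AML3 cells, by less than both at 4 h. The other 3 kinases passed the test in none of the 3 comparisons of tunicamycin with DMSO. At 4 h in OCI-AML3 cells 3 of the 6 genes rose and none fell, against 18.5% of all genes tested that were called higher and 18.9% called lower. Calls rest on edgeR's quasi-likelihood test across all genes, with an adjusted p (Benjamini-Hochberg) no higher than 0.05. With a log2 fold change above 1 required as well, 2 of the 6 were higher at 4 h, against 3.45% of all genes. At 24 h in OCI-AML3 cells 3 rose and none fell (23.5% higher and 27.7% lower of all genes), and 1 of them passed both thresholds (4.05%). In HEK293T cells 2 rose and none fell (12.6% higher and 13.1% lower), both of them past both thresholds (1.58%). The median log2 fold change of the 6 was 0.24, 0.22 and 0.09 in these comparisons, beside medians over all genes of -0.02, -0.0084 and -0.0061. Levels are given as CPM, a gene's count as a share of the scaled total of its library, and standard errors (SE) come from the fit. Since values are shares of a library, a change in a transcript and an opposite change in the rest of a cell's RNA cannot be told apart, nor can fewer responding cells and less RNA per cell.

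**Figure D1:**
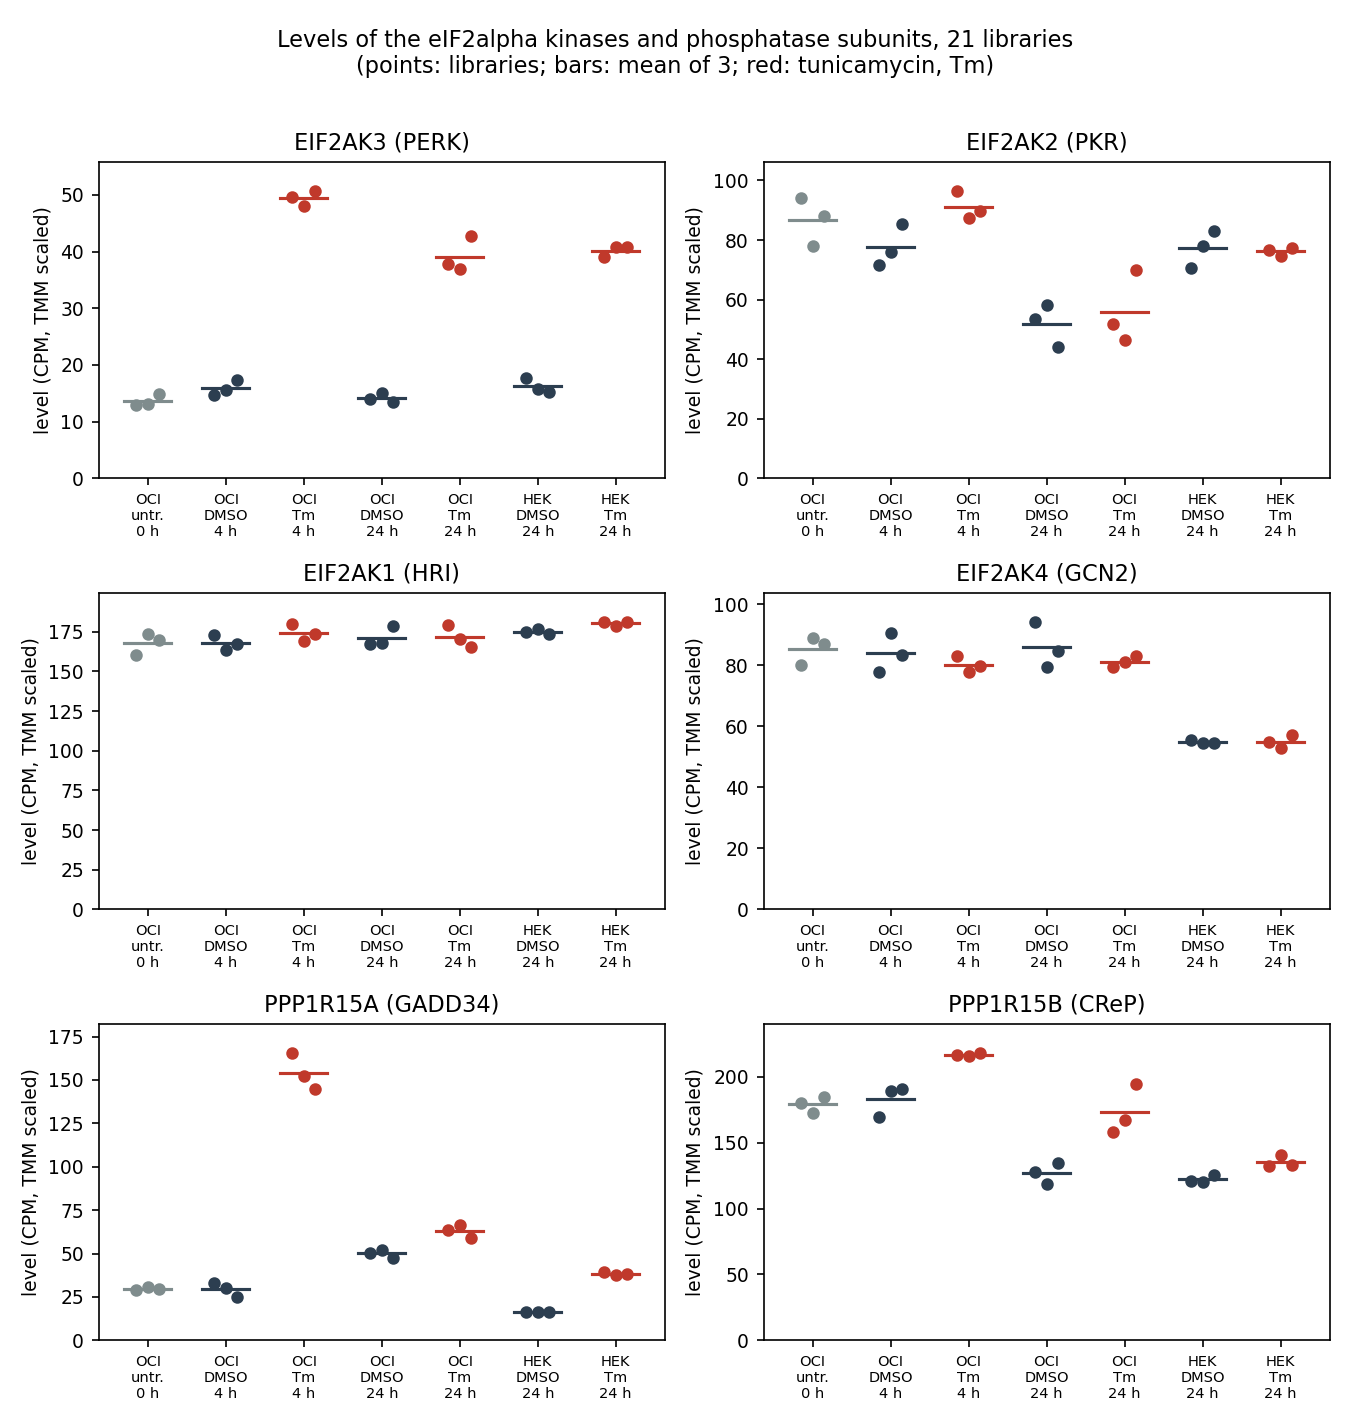
Level of each of the 6 genes (CPM, TMM scaled, axis from 0) in every library of the 7 groups, with points for libraries and bars for the mean of 3. EIF2AK3 and PPP1R15A stand above their DMSO groups in every tunicamycin library, whereas EIF2AK1 keeps to between 160 and 181 CPM throughout.

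EIF2AK3, the ER stress sensor, was the least abundant of the 6 genes per length in the 4 groups without tunicamycin. Its counts ran from 175 to 818 per library. In OCI-AML3 cells at 4 h it was measured at 14.6, 15.6 and 17.4 CPM in DMSO and at 49.6, 48.0 and 50.7 CPM in tunicamycin. At 24 h it was at 14, 15.1 and 13.5 CPM in DMSO and at 37.8, 36.9 and 42.7 CPM in tunicamycin. In HEK293T cells it was at 17.7, 15.7 and 15.3 CPM in DMSO and at 39.0, 40.7 and 40.8 CPM in tunicamycin. The untreated libraries were at 12.9, 13.2 and 14.9 CPM. The lowest tunicamycin library, at 36.9 CPM, thus stood far above the highest of all others, at 17.7 CPM. The rise was 3.11-fold at 4 h (log2 fold change 1.64 ± 0.087, SE, adjusted p = 7.73e-13), 2.76-fold at 24 h in OCI-AML3 cells (1.47 ± 0.090, adjusted p = 1.02e-11) and 2.47-fold in HEK293T cells (1.31 ± 0.085, adjusted p = 5.18e-11). Interaction terms did not separate these effects: 24 h differed from 4 h by -0.17 ± 0.13 (adjusted p = 0.299), and HEK293T from OCI-AML3 cells by -0.16 ± 0.12 (adjusted p = 0.37). Within tunicamycin, the level fell by 0.33 ± 0.081 on the log2 scale from 4 h to 24 h (adjusted p = 0.00123), a comparison added after the data were seen. In DMSO the 24 h and 4 h levels differed by -0.16 ± 0.095, which did not pass the test (adjusted p = 0.172).

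A non-coding gene on the opposite strand, ENSG00000225420, shares 781 exonic bases with EIF2AK3, and the sources used here do not say whether counting used the strand. It moved in the same direction as EIF2AK3, with log2 fold changes of 1.54 at 4 h, 0.92 at 24 h and 1.28 in HEK293T cells (adjusted p = 1.01e-07, 0.000107 and 2.01e-06). Its group means were between 2.03 and 7.59 CPM, beside 13.6 to 49.4 CPM for EIF2AK3. The divergent transcript EIF2AK3-DT, which shares no exonic base with it, had at most 38 counts and rose at 24 h in OCI-AML3 cells (1.34, adjusted p = 0.00346). The part of these reads in the EIF2AK3 counts was not tested.

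PPP1R15A had the largest fold change of the 6 genes at 4 h, and its response differed most between times. In OCI-AML3 cells at 4 h it was measured at 32.8, 30.3 and 25.0 CPM in DMSO and at 165, 152 and 145 CPM in tunicamycin. At 24 h it was at 50.5, 52.1 and 47.7 CPM in DMSO and at 63.8, 66.6 and 58.8 CPM in tunicamycin. The groups did not overlap at either time, but the lowest tunicamycin library stood at 145 CPM beside a highest DMSO library of 32.8 CPM at 4 h, and at 58.8 CPM beside 52.1 CPM at 24 h. In HEK293T cells the libraries were at 16.6, 16.6 and 16.5 CPM in DMSO and at 39.2, 37.7 and 38.3 CPM in tunicamycin, again without overlap. The untreated OCI-AML3 libraries, at 28.9, 30.7 and 29.4 CPM, lay within the range of DMSO at 4 h.

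The rise of PPP1R15A was 5.25-fold at 4 h (log2 fold change 2.39 ± 0.083, SE, adjusted p = 3.53e-16), 1.26-fold at 24 h in OCI-AML3 cells (0.33 ± 0.081, adjusted p = 0.00167) and 2.32-fold in HEK293T cells (1.21 ± 0.086, adjusted p = 2.43e-10). By the interaction term of edgeR's quasi-likelihood test, the effect at 24 h was smaller than that at 4 h (-2.06 ± 0.12, adjusted p = 1.83e-11). The effect at 24 h was larger in HEK293T than in OCI-AML3 cells by 0.88 ± 0.12 (adjusted p = 9.68e-06). Both sides of the 24 h comparison had moved. DMSO at 24 h was 1.71-fold above DMSO at 4 h (0.77 ± 0.084, adjusted p = 2.18e-07), and tunicamycin at 24 h was below tunicamycin at 4 h (-1.29 ± 0.079, adjusted p = 7.81e-12). With the untreated cells as the control, an alternative added after the data were seen, the 24 h value was 1.09 (adjusted p = 1.74e-10) in place of 0.33, and the 4 h value was 2.38 in place of 2.39.

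**Figure D2:**
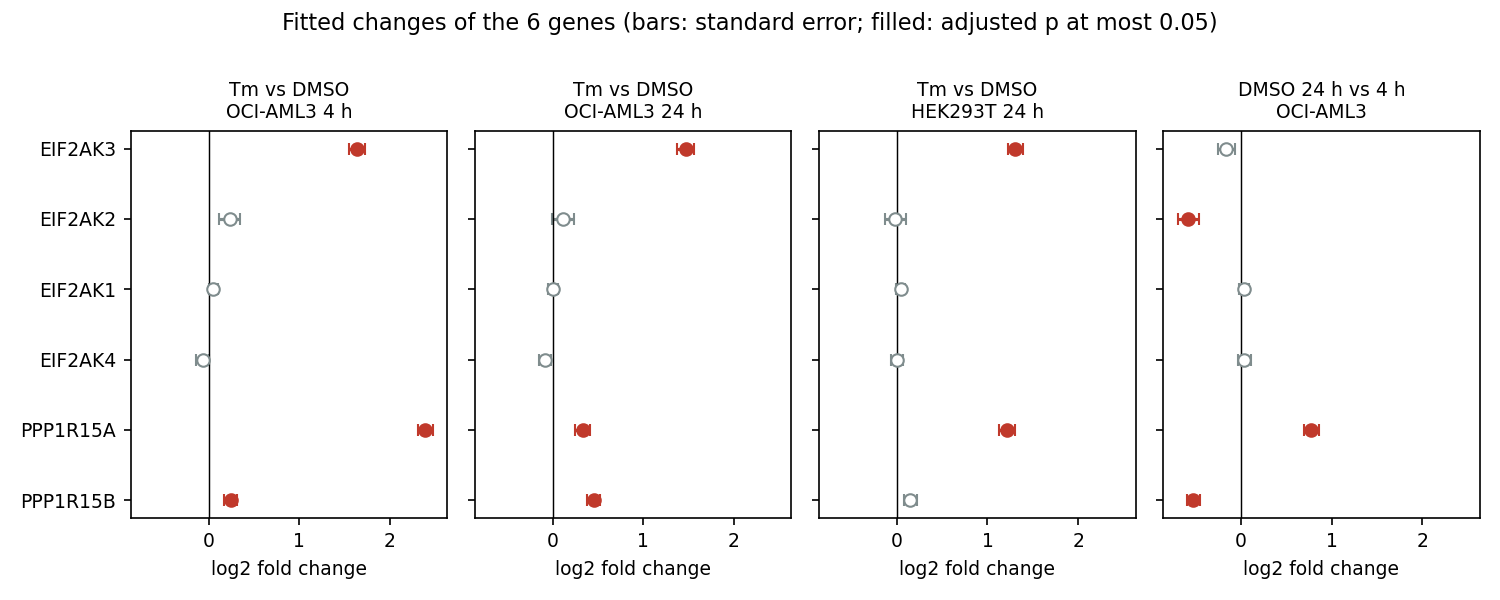
Fitted log2 fold change (horizontal axis) of the 6 genes in the 3 comparisons of tunicamycin with DMSO and in DMSO at 24 h against 4 h, with bars for the standard error and filled points for an adjusted p of at most 0.05. PPP1R15A goes from 2.39 at 4 h to 0.33 at 24 h in OCI-AML3 cells while EIF2AK3 goes from 1.64 to 1.47.

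PPP1R15B, the constitutive partner of PP1, rose with tunicamycin in OCI-AML3 cells and fell with time in DMSO. In OCI-AML3 cells at 4 h it was measured at 169, 189 and 191 CPM in DMSO and at 216, 216 and 218 CPM in tunicamycin. At 24 h it was at 128, 119 and 134 CPM in DMSO and at 158, 167 and 195 CPM in tunicamycin. Tunicamycin libraries were above DMSO libraries at both times, but those at 24 h stood no higher than the untreated cells, at 180, 173 and 185 CPM, in 2 of 3 libraries. In HEK293T cells it was at 121, 120 and 125 CPM in DMSO and at 132, 140 and 133 CPM in tunicamycin.

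PPP1R15B rose 1.18-fold at 4 h (log2 fold change 0.24 ± 0.069, SE, adjusted p = 0.00779) and 1.37-fold at 24 h (0.45 ± 0.070, adjusted p = 1.55e-05) in OCI-AML3 cells. In HEK293T cells the value was 0.15 ± 0.070, which did not pass the test (adjusted p = 0.127) although the 2 groups of libraries did not overlap. Fitted on the 6 HEK293T libraries alone, it did (0.16, adjusted p = 0.00592). With no filter on low counts, the 4 h call in OCI-AML3 cells was lost (0.21, adjusted p = 0.07). From 4 h to 24 h in DMSO the gene fell by 0.53 ± 0.070 (adjusted p = 3.4e-06), and against untreated cells the value for tunicamycin at 24 h was -0.046 (adjusted p = 0.581). HEK293T cells had the smaller effect at 24 h by the interaction term (-0.30 ± 0.099, adjusted p = 0.0264). That call was lost without HEK293T tunicamycin replicate 1 (-0.29, adjusted p = 0.0615), without replicate 3 of the same group (-0.29, adjusted p = 0.0532) and with no filter on low counts (-0.30, adjusted p = 0.0811). The difference between the OCI-AML3 effects at 24 h and 4 h was 0.21 ± 0.098 (adjusted p = 0.104). It passed the test without DMSO 4 h replicate 1 (0.29), DMSO 24 h replicate 3 (0.28), tunicamycin 24 h replicate 1 (0.31) or tunicamycin 24 h replicate 2 (0.27).

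EIF2AK2, the kinase of double-stranded RNA and a gene known to be induced by interferon, varied with time and not by the test with tunicamycin. In OCI-AML3 cells it was measured at 94.2, 77.9 and 87.9 CPM untreated, at 71.6, 75.9 and 85.3 CPM after 4 h in DMSO and at 96.4, 87.4 and 89.8 CPM after 4 h in tunicamycin. The last 2 groups did not overlap, but the log2 fold change of 0.23 ± 0.12 did not pass the test (adjusted p = 0.127) except with the 6 libraries fitted alone (0.24, adjusted p = 0.0387). At 24 h it was at 53.5, 58.0 and 44 CPM in DMSO and at 51.7, 46.3 and 70.0 CPM in tunicamycin, groups that overlapped (0.12 ± 0.12, adjusted p = 0.446). Replicate 3 of the last group stood apart from its other 2 libraries, and without it the value was -0.042 (adjusted p = 0.778), so that its sign rests on that library.

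All OCI-AML3 libraries of 24 h were below all those of 0 h and 4 h for EIF2AK2. The gene fell by 0.58 ± 0.12 on the log2 scale from DMSO at 4 h to DMSO at 24 h (0.668-fold, adjusted p = 0.000513), and by 0.70 ± 0.12 from tunicamycin at 4 h to tunicamycin at 24 h (adjusted p = 2.9e-05). Against untreated cells, tunicamycin at 24 h was lower (-0.62, adjusted p = 9.38e-05). In HEK293T cells it was at 70.7, 77.9 and 83.0 CPM in DMSO and at 76.7, 74.6 and 77.3 CPM in tunicamycin (-0.02, adjusted p = 0.952). GPATCH11, which shares 35 exonic bases with EIF2AK2 on the opposite strand, rose at 4 h and 24 h in OCI-AML3 cells (0.64 and 0.59, adjusted p = 3.55e-05 and 0.000112). Its part in the EIF2AK2 counts was not tested.

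EIF2AK1 and EIF2AK4, the kinases of haem shortage and of amino acid shortage, passed the test with tunicamycin nowhere. EIF2AK1 was at 160 to 181 CPM in all 21 libraries. Its log2 fold changes under tunicamycin were 0.05 ± 0.053 at 4 h, 0.0036 ± 0.053 at 24 h and 0.04 ± 0.053 in HEK293T cells (adjusted p = 0.453, 0.963 and 0.62). AIMP2, a protein-coding gene that shares 532 exonic bases with it on the opposite strand, rose at 4 h (0.30, adjusted p = 0.00426) and fell at 24 h (-0.28, adjusted p = 0.00719) in OCI-AML3 cells, and its part in the EIF2AK1 counts was not tested. EIF2AK4 was at 77.6 to 94.1 CPM in the 15 OCI-AML3 libraries and at 52.9 to 57.1 CPM in the 6 HEK293T libraries. Its values under tunicamycin were -0.06 ± 0.069, -0.09 ± 0.070 and 0.0021 ± 0.070 (adjusted p = 0.505, 0.317 and 1).

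The solvent and the time in culture were compared next, since each tunicamycin group has its own DMSO control. Between DMSO at 4 h and untreated cells 0 of the 6 genes were called, and 0% of all genes. Of all genes, 1160 had an unadjusted p under 0.05 in edgeR's quasi-likelihood test, and 0 were called by voom and 19 by DESeq2. EIF2AK3 came nearest of the 6 (0.22 ± 0.093, adjusted p = 0.568). Between DMSO at 24 h and at 4 h, PPP1R15A rose and EIF2AK2 and PPP1R15B fell, 1 higher and 2 lower of 6, against 21% of all genes called higher and 21.6% lower. The single rise was near the share called higher. These comparisons share DMSO libraries with those of tunicamycin. From tunicamycin at 4 h to tunicamycin at 24 h 4 of the 6 fell (EIF2AK2, EIF2AK3, PPP1R15A and PPP1R15B), and none rose, against 32% of all genes called lower and 27.2% called higher. By the interaction terms, 1 of the 6 differed between times, below the share of all genes (35.3%). Between lines 2 differed, near the share of all genes (26.8%).

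The lines differed in 3 of the 6 genes in DMSO at 24 h, against 82.7% of all genes called. PPP1R15A was lower in HEK293T cells (-1.60 ± 0.086, 0.331-fold, adjusted p = 4.77e-14), EIF2AK4 was also lower (-0.65 ± 0.070, adjusted p = 1.2e-08), and EIF2AK2 was higher (0.57 ± 0.12, adjusted p = 0.00013). EIF2AK3 was at 0.19 ± 0.093 (adjusted p = 0.0585) and passed without OCI-AML3 DMSO 24 h replicate 2 (0.27), HEK293T DMSO replicate 2 (0.25) or HEK293T DMSO replicate 3 (0.27). EIF2AK1 (0.03, adjusted p = 0.579) and PPP1R15B (-0.06, adjusted p = 0.465) did not pass. The lines were grown in different media, and line and medium cannot be told apart. With library sizes in place of TMM scaling the median over all genes moved from -0.01 to 0.33 and all 6 members with it: PPP1R15B changed sign (0.29, adjusted p = 0.00307), EIF2AK2 was at 0.92 and EIF2AK4 at -0.31, and EIF2AK1 (0.38) and EIF2AK3 (0.54) passed the test. The 13 interferon-inducible genes listed beside EIF2AK2 were all lower in HEK293T cells, against 42.2% of all genes called lower, for example STAT2 (-1.18) and IFIT1 (-1.20), the opposite direction to EIF2AK2. Some of the 13 were at or near 0 counts in HEK293T cells, among them OAS1 with 0 counts in all 6 libraries.

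The labelled lines were checked against marker genes. PTPRC (CD45) was at 230 to 467 CPM in the OCI-AML3 libraries and had 0 counts in all HEK293T libraries, and LIN28B was at 102 to 115 CPM in HEK293T and had at most 1 count in any OCI-AML3 library. Of the myeloid markers, SPI1, CD33 and LYZ had at most 4 counts in a HEK293T library. MPO was near 1 CPM in OCI-AML3 cells, and HOXA9 was higher in HEK293T cells. Of the kidney markers, CDH2 and KRT18 were clearly present in HEK293T cells, KRT8 was low, and PAX2 and EPCAM were near 1 CPM.

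Levels can be compared between genes only per length, and CPM were therefore divided by the length of the canonical transcript in kilobases (kb). In untreated OCI-AML3 cells the order was EIF2AK1 (38.0 ± 1.54 CPM per kb, SD, n = 3), PPP1R15B (34.1 ± 1.17), EIF2AK4 (15.4 ± 0.830), PPP1R15A (12.6 ± 0.397), EIF2AK2 (8.69 ± 0.825) and EIF2AK3 (3.01 ± 0.248). Neighbours in the order did not overlap between libraries in any of the 7 groups. DMSO at 4 h gave the same order. After 4 h of tunicamycin PPP1R15A led (65.5 ± 4.51), followed by PPP1R15B (41.2 ± 0.217) and EIF2AK1 (39.5 ± 1.27), and EIF2AK3 (10.9 ± 0.298) stood above EIF2AK2 (9.14 ± 0.471). In tunicamycin at 24 h, in both lines, EIF2AK1 and PPP1R15B led again, PPP1R15A was next, and EIF2AK3 remained above EIF2AK2. In DMSO at 24 h PPP1R15A stood above EIF2AK4 in OCI-AML3 cells (21.3 ± 0.953 against 15.5 ± 1.34), but in HEK293T cells it stood below EIF2AK2 (7.05 ± 0.038 against 7.74 ± 0.618). The order depends on the length used below the first place. With the length of all exons of a gene joined, EIF2AK1 stood above PPP1R15B after 4 h of tunicamycin, PPP1R15A stood above PPP1R15B in OCI-AML3 cells after 24 h in DMSO, and EIF2AK3 was last in every group, tunicamycin included. By that length EIF2AK4 stood below PPP1R15A and EIF2AK2 in untreated cells (7.1 against 8.6 and 7.9 CPM per kb). EIF2AK4 did so as well in DMSO and in tunicamycin at 4 h, and in HEK293T cells in DMSO and in tunicamycin.

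The ratio of PPP1R15A to PPP1R15B and the share of EIF2AK3 among the kinases describe the balance within each class. Per kb, the ratio was 0.434, 0.359 and 0.293 in DMSO and 1.71, 1.58 and 1.48 in tunicamycin at 4 h in OCI-AML3 cells, a difference of 2.15 on the log2 scale. By the canonical lengths the stress-induced subunit was thus below the constitutive subunit in every DMSO library of 4 h and above it in every tunicamycin library of 4 h, and with joined exon lengths this held as well (0.527, 0.437 and 0.356 against 2.08, 1.92 and 1.8). At 24 h the ratio was 0.885, 0.98 and 0.795 in DMSO and 0.902, 0.891 and 0.676 in tunicamycin, groups that overlapped (-0.12 on the log2 scale, exact permutation p = 0.7). With joined exon lengths these 24 h ratios were 1.08, 1.19 and 0.966 in DMSO and 1.1, 1.08 and 0.821 in tunicamycin, so on which side of 1 they fall depends on the length. In HEK293T cells it was 0.307, 0.31 and 0.294 in DMSO and 0.663, 0.601 and 0.643 in tunicamycin (1.07 on the log2 scale). For 4 h and for HEK293T cells the exact permutation test, two-sided, gave p = 0.1, the smallest that 3 libraries against 3 allow.

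EIF2AK3 made up 5.42% ± 0.413 (SD, n = 3) of the summed CPM per kb of the 4 kinases in DMSO at 4 h and 14.7% ± 0.404 in tunicamycin. At 24 h it made up 4.99% ± 0.361 and 12.7% ± 0.833 in OCI-AML3 cells, and 5.88% ± 0.487 and 13.2% ± 0.360 in HEK293T cells. EIF2AK1 held the largest share in every group, from 53.4% to 65.2% as group means. The sum of the 4 kinases was 64.4 ± 0.860 CPM per kb in DMSO and 74.0 ± 2.37 in tunicamycin at 4 h, while EIF2AK3 alone went from 3.50 to 10.9 CPM per kb. With the joined exon lengths the share of EIF2AK3 was lower, at 1.69% and 4.87% at 4 h, and again higher in tunicamycin.

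**Figure D3:**
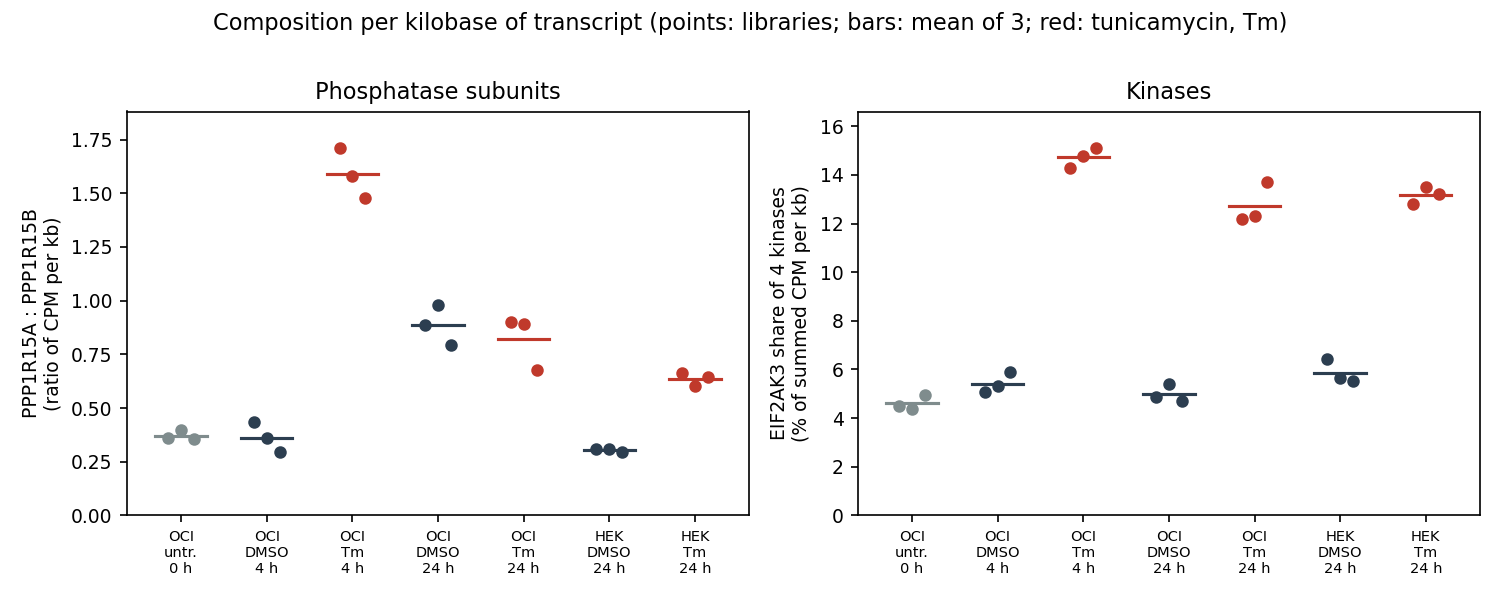
Ratio of PPP1R15A to PPP1R15B (left) and share of EIF2AK3 in the summed level of the 4 kinases in percent (right), both from CPM per kb of canonical transcript, for every library with bars for the mean of 3. With these lengths the ratio exceeds 1 only in the 3 libraries of OCI-AML3 cells after 4 h of tunicamycin (with joined exon lengths also in 4 OCI-AML3 libraries of 24 h), and the EIF2AK3 share is 12.2% or more in every tunicamycin library.

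Around these genes, the listed members of the same pathway were counted in the same way. The lists were chosen with earlier results of these data known, so the counts describe the listed genes only. The counts below are to be set against the shares of all genes called higher and lower, which were 18.5% and 18.9% at 4 h, 23.5% and 27.7% at 24 h in OCI-AML3 cells, and 12.6% and 13.1% in HEK293T cells. The 10 genes of the ATF4 arm, which are ATF4 and genes known to be induced downstream of it, all rose in all 3 comparisons of tunicamycin with DMSO, with median log2 fold changes of 3.41 at 4 h, 1.52 at 24 h and 2.06 in HEK293T cells. DDIT3 (CHOP), a transcription factor known to act on PPP1R15A, rose by 5.36, 4.33 and 3.69, and ATF4 by 1.01, 0.90 and 0.59. The effect of 9 of the 10 on the log2 scale was smaller at 24 h than at 4 h by the interaction term, against 20.3% of all genes called lower by it. The difference was -2.65 for TRIB3 and -4.77 for DDIT4, an inhibitor of mTORC1, next to -2.06 for PPP1R15A, and that of ATF4 did not differ by the test (-0.11, adjusted p = 0.51). As with PPP1R15A, the DMSO control moved for part of this list: between 4 h and 24 h in DMSO 5 of the 10 rose and 2 fell (21% and 21.6% of all genes), and DDIT4 rose by 4.37.

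Among the substrate and its partners (the 3 subunits of eIF2, the 5 of its exchange factor eIF2B, and EIF5), 4 of 9 rose and none fell at 4 h in OCI-AML3 cells (median 0.14). At 24 h 2 rose, a share near that of all genes (23.5%), and 6 fell (median -0.36). The 2 that rose at 24 h, EIF5 (0.63) and EIF2S2 (0.39), had also risen at 4 h (0.89 and 0.73). EIF2B2 (0.27) and EIF2S3 (0.17) rose at 4 h only. EIF2S1, which encodes eIF2alpha, did not pass at 4 h (0.02) and fell at 24 h in OCI-AML3 cells (-0.36, adjusted p = 0.000122) and in HEK293T cells (-0.24, adjusted p = 0.00879). All 5 eIF2B subunits fell at 24 h in OCI-AML3 cells, from -0.26 for EIF2B1 to -0.82 for EIF2B3. In HEK293T cells 1 of 9 rose (EIF2S2, 0.38) and 1 fell, both near the shares of all genes (12.6% and 13.1%). Of the 3 catalytic subunits of PP1, none was called at 4 h or in HEK293T cells, whereas at 24 h in OCI-AML3 cells PPP1CB rose (0.40) and PPP1CA (-0.40) and PPP1CC (-0.25) fell. Tunicamycin 24 h replicate 3 stood apart for PPP1CB (132 CPM against 107 and 105) and for PPP1CA (210 CPM against 275 and 269).

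The 9 listed regulators of the kinases rose in 3 cases and fell in 1 at 4 h, rose in 4 and fell in 3 at 24 h, and rose in 4 and fell in 2 in HEK293T cells. The falls at 4 h and 24 h were near the shares of all genes called lower (18.9% and 27.7%). The 2 that passed the fold threshold, the same in each comparison, are known to hold kinases in check. HSPA5 (BiP), the ER chaperone that binds the lumenal part of PERK, rose by 3.29, 3.52 and 2.7, and DNAJC3 (p58IPK), an ER co-chaperone described as an inhibitor of PERK and PKR, by 2.47, 2.6 and 1.82. GCN1, which GCN2 needs for its activation, fell in all 3 (-0.29, -0.46 and -0.32), and IMPACT, which competes with GCN2 for GCN1, rose at 24 h in both lines (0.48 and 0.57). Of the rest of the list, PRKRA rose at 4 h (0.26) and in HEK293T cells (0.39), and OMA1 rose at 24 h in OCI-AML3 cells (0.45). TARBP2 fell at 24 h in OCI-AML3 cells (-0.70), ADAR fell at 24 h in both lines (-0.25 and -0.27), and DELE1 was not called. The interferon-inducible list had 5 of 13 higher at 4 h, 1 higher and 4 lower at 24 h, and 1 higher and 3 lower in HEK293T cells. Of these, the falls at 24 h and the single rise in HEK293T cells were near the shares of all genes (27.7% lower and 12.6% higher). From 4 h to 24 h in DMSO, where EIF2AK2 fell, 6 of the 13 fell and 1 rose, against 21.6% and 21% of all genes.

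**Figure D4:**
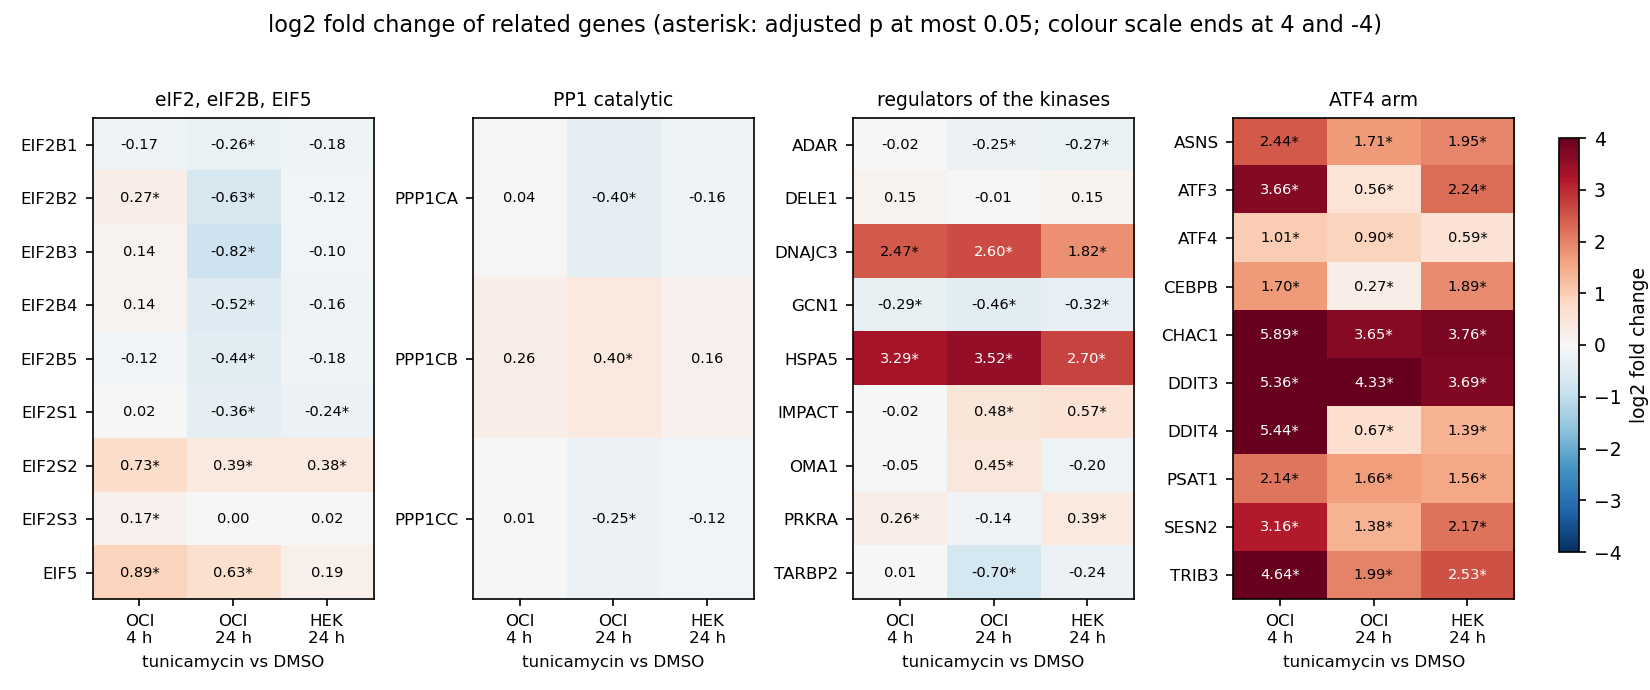
Log2 fold change of tunicamycin against DMSO for 31 related genes in 4 lists, for 4 h and 24 h of treatment in OCI-AML3 and 24 h in HEK293T cells. Colour gives the value, whose scale ends at 4 and -4, and an asterisk marks an adjusted p of at most 0.05. The ATF4 arm is red throughout, and the eIF2B subunits are negative at 24 h in OCI-AML3 cells.

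The genes whose level was most like that of each member were found by Pearson's r of log2 CPM over the 15 OCI-AML3 libraries, which share 5 conditions and are not independent. EIF2AK3 was most like SEL1L (r = 0.993), SLC38A2 (0.991) and SYVN1 (0.99), which encode a part of the ER-associated degradation machinery, an amino acid transporter and a ubiquitin ligase of the ER. PPP1R15A was most like STX5 (0.988), LLGL2 (0.988) and CCDC163 (0.983), and PPP1R15B was most like STAG1 (0.974), RMND5A (0.967) and BTBD10 (0.966). EIF2AK2 was most like GK5 (0.962), RIMOC1 (0.961) and CCDC150 (0.959). For the genes that hardly moved, the highest values were lower, at 0.819 for EIF2AK1 (RNF10) and 0.769 for EIF2AK4 (PADI2). Between members, EIF2AK3 and PPP1R15A had r = 0.855 and EIF2AK2 and PPP1R15B had r = 0.77. Over all 21 libraries these were 0.698 and 0.448.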

How the data were processed

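RNA of 21 libraries was enriched for polyadenylated transcripts and sequenced as paired ends. By the study's methods, seqtk was used for trimming, STAR for alignment to GRCh38, and RSEM with Ensembl release 101 for counting per gene. The values the authors deposited are expected counts, neither scaled nor filtered (3.54 to 4.22% of them not whole), and were rounded here. Use of the strand in counting is not given in the sources used here. All columns were mapped to samples, and no 2 libraries were identical.

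Counts were scaled to CPM (the share of a library, TMM scaled). Genes that reached 1 CPM in 8 or more libraries (14012 of 60671) were fitted with edgeR 4.0.16 (R 4.3.3) by the quasi-likelihood method, with TMM scaling, a mean for each of 7 groups and no replicate block. P-values were adjusted by Benjamini and Hochberg over all genes tested, and a gene was called at 0.05. The standard error of a log2 fold change was taken as its size over the root of the F statistic. A log2 fold change above 1 or below -1 was the second threshold. The scripts were tested on simulated data. The members and lists were chosen with earlier results of these data known. The genes named are the 6 members, for each of them the 3 genes with the highest r of log2 CPM (prior count 2), and listed genes of the pathway, of the interferon response and of the cell lines. Symbols, lengths and overlaps are from GENCODE 44, which holds 99.6% of the gene IDs. Ratios and shares were compared by two-sided exact permutation tests. Alternatives were limma voom (3.58.1), DESeq2 (1.42.0), other scalings and filters, a fit of only the compared groups, a replicate block, each library left out, other lengths, and untreated cells as the control.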

Additional observations from a re-analysis of the deposited data

Results flagged for a closer look

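The effect of tunicamycin on PPP1R15A in OCI-AML3 cells differed between the times by the interaction term of edgeR's quasi-likelihood test, with a log2 difference of -2.06 (24 h minus 4 h) in 3 libraries a group. Tunicamycin libraries were above DMSO libraries in 3 of 3 at both times. The 24 h control stood 0.77 above the 4 h control on the log2 scale, and tunicamycin at 24 h stood at -1.29 against tunicamycin at 4 h.

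The effect of tunicamycin at 24 h also differed between the lines for PPP1R15A (0.88, HEK293T minus OCI-AML3) and for PPP1R15B (-0.30). The level of PPP1R15A in DMSO was 0.331-fold in HEK293T relative to OCI-AML3 cells. No HEK293T libraries of 4 h were used here.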

How the results depend on the processing

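Of 756 alternative values for fitted results of the 6 genes, 734 kept their side of the threshold and, where called, their direction, and 22 did not. The comparison of tunicamycin at 24 h with tunicamycin at 4 h was fitted in the main setting only and is not among them. Values that were not called could change sign, as that of EIF2AK2 at 24 h did without tunicamycin 24 h replicate 3 (-0.042). The calls of EIF2AK3 and PPP1R15A under tunicamycin held in all alternatives run. Untreated cells as the control, added after the data were seen, gave for tunicamycin at 24 h in OCI-AML3 cells -0.62 for EIF2AK2 (called lower) and -0.046 for PPP1R15B (call lost), so that 3 genes were again called, but not the same 3. Compared groups fitted alone gave 0.24 for EIF2AK2 in OCI-AML3 cells at 4 h and 0.16 for PPP1R15B in HEK293T cells, both then called. With no filter on low counts PPP1R15B was at 0.21 at 4 h and -0.30 for the difference between lines, both calls lost (1 member called between lines), and at -0.23 for HEK293T against OCI-AML3 cells in DMSO, then called. With library sizes in place of TMM, values newly called were -0.28 for EIF2AK3 in DMSO over time, 0.31 for the PPP1R15B difference between times, and 0.38, 0.54 and 0.29 for EIF2AK1, EIF2AK3 and PPP1R15B between lines in DMSO (6 members called). That scaling moved the median over all genes to -0.14 for DMSO over time. DESeq2 gave 0.25 for the PPP1R15B difference between times, and 2 members were then called. The cause of these changes was not tested.

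Leaving out each library in turn, the PPP1R15B difference between times ran from 0.14 to 0.31 (1 to 2 members called), that between lines from -0.42 to -0.25 (1 to 2 members called), and EIF2AK3 between lines in DMSO from 0.16 to 0.27. The log2 ratio of PPP1R15A to PPP1R15B at 24 h, which was not called, ran from -0.19 to 0.021, the latter without tunicamycin 24 h replicate 3. Over all 21 libraries in place of 15, EIF2AK2 and EIF2AK3 each kept 1 of the 3 genes most like them and the other 4 members kept 0.

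The labels number the replicates 1 to 3 in every group. Deviations of libraries with the same number were correlated at -0.139 to 0.199 over pairs of groups, with a median of 0.0295 against -0.017 for other numbers, so the numbers were not taken to pair the libraries. With the replicate block the values were 1.64 for EIF2AK3 and 2.39 for PPP1R15A at 4 h. No member's call changed in any comparison fitted with the block, which tunicamycin at 24 h against 4 h was not. Depth limits EIF2AK3 most, at 175 counts in its lowest library.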
